A study of Mus musculus with 8 samples.

Results

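The integrins of hepatic macrophages are described here as a set of 10 genes, chosen by symbol: *Itgb2* with its partners *Itgal*, *Itgam* and *Itgax*, *Itga4* with *Itgb1* and *Itgb7*, and *Itgav* with *Itgb3* and *Itgb8*. All 10 were among the 55401 genes of the deposited table, and all 10 passed the filter of 0.5 CPM (counts scaled to the library total) in at least 1 library, as did 15202 genes in all. Poly(A) RNA-seq libraries came from 4 groups, with 2 libraries in each and 8 in total. Wild-type C57BL/6J mice on standard diet gave the livers labelled normal, and melanocortin 4 receptor-deficient (MC4R-KO) mice on the C57BL/6J background, kept on Western diet over 6 to 10 weeks, gave those labelled steatotic, so that genotype and diet cannot be told apart. In both, F4/80-positive cells were isolated magnetically from the nonparenchymal fraction, plated on collagen in RPMI with fetal bovine serum, and treated for 24 h, either with vehicle (Veh) or with 500 μg/ml cholesterol crystals (CC). The labels do not say whether the 2 libraries of a group came from separate animals or cultures, and the p-values measure only the spread between these libraries, which may be technical.

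Integrins are cell surface adhesion receptors made of 1 alpha and 1 beta chain, and the pairing of the chains sets which ligands are bound. The β2 chain CD18 pairs with CD11a, CD11b and CD11c on leukocytes, which bind intercellular adhesion molecules and complement fragments. The α4 chain pairs with β1 (VLA-4) or β7 and binds VCAM-1, fibronectin or MAdCAM-1, and αV integrins bind ligands with an RGD motif, among them vitronectin, osteopontin and latent TGF-β. CD11c is widely used as a marker of macrophages in fatty tissue, and CD11b as a marker of myeloid cells.

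Total counts per library ranged from 58668655 to 74529462. *Mc4r*, the disrupted gene, had 0 counts in the 4 libraries labelled normal and 0.299 to 0.966 CPM in those labelled steatotic, the opposite of what the labels give unless reads still arise from the disrupted allele, so each direction between livers rests on the labels. The 6 Kupffer cell markers summed to 3829 to 3847 CPM in normal Veh, 2961 to 3184 in normal CC, 5632 to 5701 in steatotic Veh and 3603 to 4168 in steatotic CC, with none at 0 in any group, so the markers of the labelled cell type were present. Of these 6, 4 were called higher and 2 lower at Veh in the steatotic libraries, and CC lowered 4 in normal livers and lowered 5 and raised 1 in steatotic livers. Low levels of several other cell types moved with the liver label, though not those of B cells. At Veh all 5 monocyte markers were higher in the steatotic libraries, with sums of 9.22 to 9.35 CPM against 114 to 120 CPM, as were 5 of 7 T or NK cell markers, with sums of 0.935 to 1.31 against 10.8 to 12.8 CPM. With T or NK cell sums this low in normal Veh, some of these 7 may have passed the filter only through steatotic libraries, which would fix their direction. The 6 sinusoidal endothelial markers summed to 69.3 to 79.0 against 160 to 165 CPM, with 3 higher and 1 lower of the 5 tested, and the 6 dendritic cell markers to 3.61 to 4.24 against 9.38 to 9.65 CPM, with 2 higher and 1 lower of the 5 tested. The 6 neutrophil markers summed to 9.11 to 9.94 CPM in normal Veh, 14.4 to 14.9 in normal CC, 4.42 to 5.50 in steatotic Veh and 18.4 to 19.5 in steatotic CC. *Ly6g* was at 0 in all groups, and the 1 neutrophil marker tested was called lower at Veh in the steatotic libraries and higher with CC in both livers (0.66 and 1.97 on the log2 scale) and for the difference between these responses (1.31). The 4 B cell markers summed to 2.40 to 2.66 CPM in normal Veh and 2.59 to 2.88 in steatotic Veh, with 0 higher and 0 lower of the 3 tested. The 5 mast cell or basophil markers summed to at most 0.0961 CPM. The part of these cells in the integrin values was not tested, and in bulk RNA fewer cells of a type cannot be told apart from less RNA per cell.

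Levels of the members spanned a wide range. Per kilobase of exon, *Itgb2* was the highest in all 4 groups, from 305 ± 7.38 (SD, n = 2) CPM per kb in normal Veh to 373 ± 6.41 in normal CC, and *Itgb8* was the lowest, from 0.0160 ± 0.00820 in normal Veh to 0.241 ± 0.0309 in steatotic CC. *Itgb1* was the second highest in 3 groups, and in steatotic CC its 167 ± 3.97 CPM per kb overlapped the 168 ± 3.94 of *Itgb7*, which in normal Veh ranked 5 with 13.2 ± 0.289. *Itgax* ranked 7 of 10 in both groups labelled normal and 5 in steatotic CC. *Itgam* and *Itgal* overlapped in normal Veh, and *Itga4* and *Itgax* in steatotic Veh. No other neighbours in these orders overlapped. *Itgam* is taken here without the reads given to an overlapping gene model, *Gm49368*, described below. With these added, *Itgam* lay above *Itgal* in normal Veh without overlap.

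**Figure D1:**
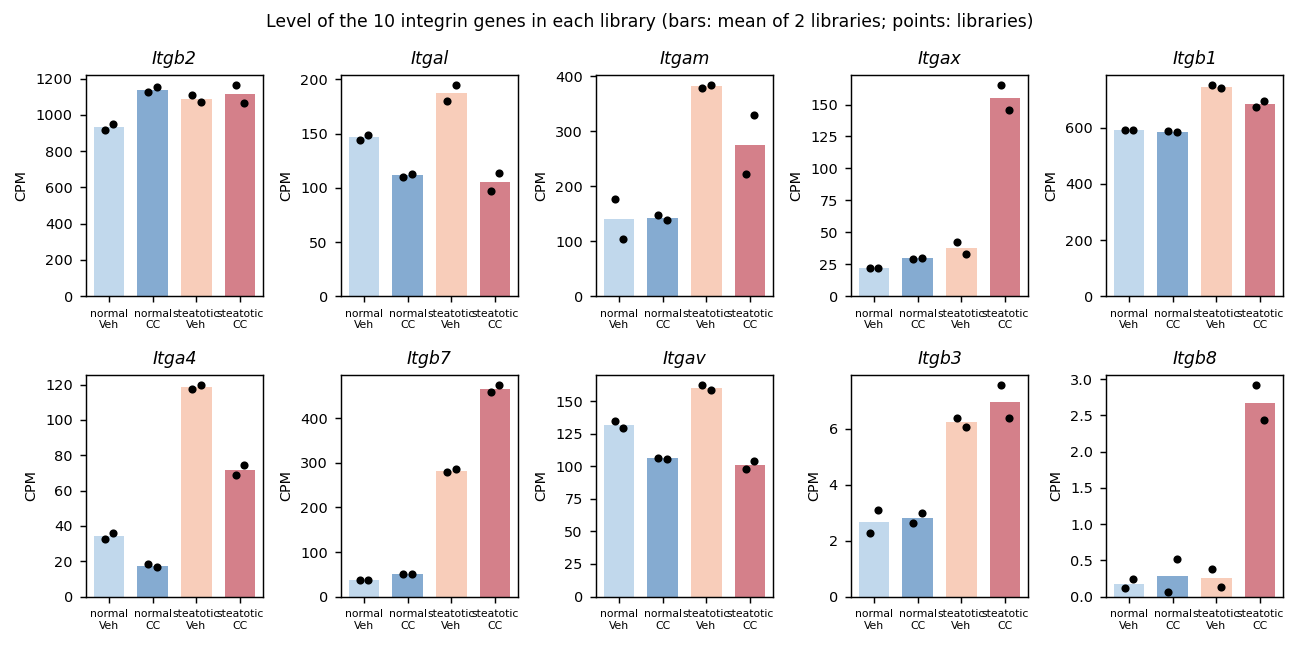
Level of each of the 10 integrin genes in CPM on a linear axis that starts at 0, with the 4 groups on the horizontal axis, bars for the mean of 2 libraries and points for the libraries. *Itgb7* and *Itga4* are higher in both steatotic groups, *Itgax* and *Itgb8* stand out in steatotic CC, and the *Itgam* replicates lie far apart in normal Veh and steatotic CC.

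At Veh, 9 of the 10 integrins were higher and 0 lower in macrophages labelled steatotic, relative to those labelled normal, by edgeR's quasi-likelihood test with Benjamini-Hochberg adjustment over all tested genes (threshold 0.05). Of all 15202 genes tested, 16.4% were called higher and 14.3% lower in this comparison. The median log2 fold change of the 10 members was 0.70, beside -0.01 over all genes tested. Only *Itgb8* did not pass. With CC, 6 members were higher by liver label and 0 lower, against 15.9% and 12.9% of all genes. These were *Itgax*, *Itga4*, *Itgb1*, *Itgb7*, *Itgb3* and *Itgb8*, and the median of the 10 was 1.16, beside 0.00 over all genes. The call of *Itgam* at Veh and that of *Itgb8* with CC were each lost under several settings, given with each gene. No member was lower by liver label in either comparison with DESeq2 or at an unadjusted edgeR p under 0.05. In 6 members (*Itga4*, *Itgam*, *Itgax*, *Itgb1*, *Itgb3* and *Itgb7*) the 4 steatotic libraries all lay above the 4 normal ones, and in 0 members below, against 13.5% and 16.7% of all genes.

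The response to CC split the set. In the libraries labelled normal, CC raised 3 members (*Itgax*, *Itgb2* and *Itgb7*) and lowered 3 (*Itga4*, *Itgal* and *Itgav*), where 6.27% of all genes rose and 5.54% fell. With libraries scaled by their size only, the balance over all genes moved from 953 higher and 842 lower to 808 higher and 1110 lower, and the call of *Itgax* was lost (edgeR adjusted p = 0.0540). In those labelled steatotic, CC raised 3 (*Itgax*, *Itgb7* and *Itgb8*) and lowered 4 (*Itga4*, *Itgal*, *Itgav* and *Itgb1*), where 12.0% of all genes rose and 10.9% fell. The medians of the 10 were 0.08 and -0.03, beside -0.00 and 0.00 over all genes. The test of the difference between the 2 responses called 1 member higher (*Itgax*) and 1 lower (*Itgav*), where 1.95% and 1.27% of all genes were called. Some of these counts depended on the setting. The 1 lower for the difference ran from 0 to 3 over the alternatives and libraries left out, and the 3 lowered in normal livers became 1 without normal Veh replicate 1. The calls of *Itgb8* and *Itgb1* with CC in steatotic livers were lost under several settings, given with each gene.

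**Figure D2:**
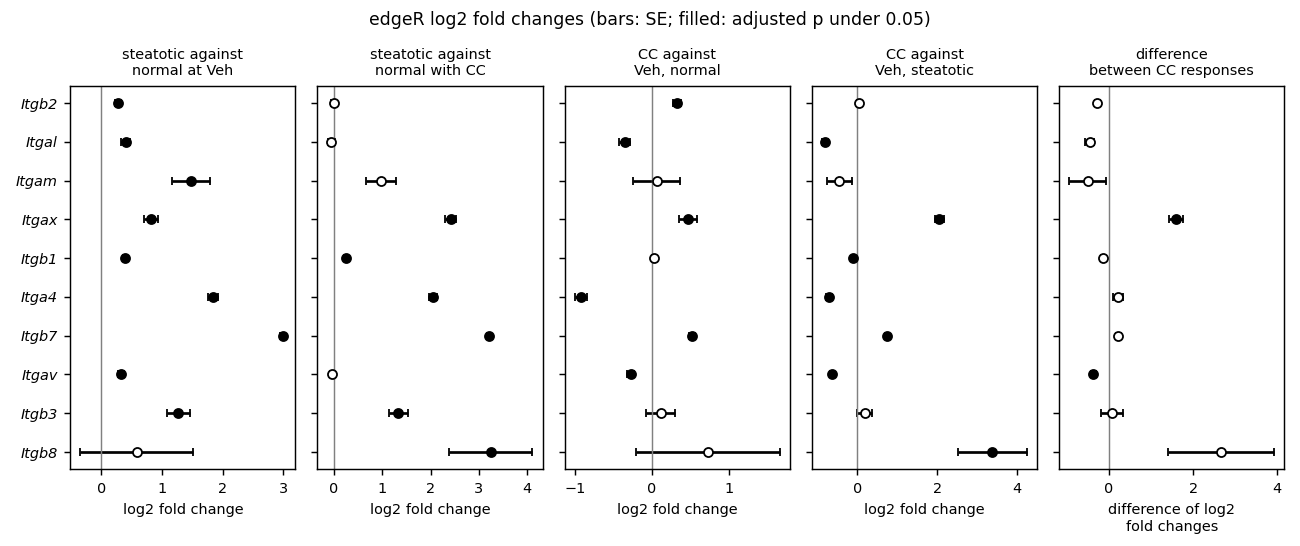
Log2 fold changes of the 10 integrins from edgeR in 5 comparisons, with 1 standard error to each side on linear axes that differ between panels. Filled points have an adjusted p under 0.05. At Veh the points lie to the right of 0, while with CC *Itgax* and *Itgb7* lie to the right and *Itga4*, *Itgal* and *Itgav* to the left of 0 with either liver label.

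*Itgb2* (ENSMUSG00000000290.13; GRCm38 chr10:77530252-77565708, plus strand) encodes CD18, the common β2 chain. Its level was 916.04 and 947.9 CPM in normal Veh, 1124 and 1152 in normal CC, 1108 and 1073 in steatotic Veh, and 1164 and 1064 in steatotic CC. Only the normal Veh libraries lay below those of the other groups. It was higher by 0.27 (SE 0.0485) on the log2 scale in steatotic than in normal livers at Veh (edgeR adjusted p = 0.00436). CC raised it by 0.32 (SE 0.0486) in normal livers (edgeR adjusted p = 0.00497), whereas the value in steatotic livers was 0.05 (SE 0.0485; edgeR adjusted p = 0.551). The difference of these responses, -0.28 (SE 0.0686), did not pass (edgeR adjusted p = 0.0916), but did with all genes of any count (adjusted p = 0.0285) and without steatotic CC replicate 1 (adjusted p = 0.0316).

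*Itgal* (ENSMUSG00000030830.18; chr7:127296260-127335138, plus strand) encodes CD11a, the alpha chain of LFA-1, which binds ICAM-1. Its level was 143.9 and 149.1 CPM in normal Veh, 110.4 and 113.0 in normal CC, 180.4 and 194.8 in steatotic Veh, and 97.4 and 113.6 in steatotic CC. The Veh libraries of each liver lay above its CC libraries, and the CC groups of the 2 livers overlapped. *Itgal* was higher by 0.40 (SE 0.0741) in steatotic Veh (edgeR adjusted p = 0.00505). CC lowered it with log2 fold changes of -0.35 (SE 0.0742) in normal livers (edgeR adjusted p = 0.0208) and -0.81 (SE 0.0745) in steatotic livers (edgeR adjusted p = 0.000200). The call in normal livers was lost without any 1 of the 4 libraries compared (edgeR adjusted p from 0.0784 to 0.112). The difference of the responses was -0.46 (SE 0.105; edgeR adjusted p = 0.0689) and passed with DESeq2 (adjusted p = 0.00951), with all genes of any count (adjusted p = 0.0256), with the replicate block (adjusted p = 0.0388) and without steatotic CC replicate 2 (adjusted p = 0.0193). With CC the value between livers was -0.06 (edgeR adjusted p = 0.630).

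*Itgam* (ENSMUSG00000030786.18; chr7:128062640-128118491, plus strand) encodes CD11b, the alpha chain of Mac-1, which binds the complement fragment iC3b. Its level was 176.3 and 104.9 CPM in normal Veh, 147.0 and 138.2 in normal CC, 379.1 and 384.0 in steatotic Veh, and 221.5 and 330.0 in steatotic CC. The replicates of normal Veh and of steatotic CC lay far apart. The call at Veh, a log2 fold change of 1.49 (SE 0.313; edgeR adjusted p = 0.0245), was lost with all genes of any count (adjusted p = 0.0628), with the replicate block (adjusted p = 0.0519), with only the 4 libraries compared (adjusted p = 0.0839) and without either steatotic Veh library, either normal CC library or normal Veh replicate 2 (adjusted p from 0.0517 to 0.0940). The GENCODE annotation places 3450 exonic bases of *Itgam* also in *Gm49368*, a second protein-coding gene model on the same strand.

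*Gm49368* had 125.8 and 222.9 CPM in normal Veh, 195.1 and 213.7 in normal CC, 325.9 and 312.7 in steatotic Veh, and 332.3 and 245.8 in steatotic CC, so its replicates differed in the direction opposite to those of *Itgam* wherever these lay far apart. The sum of both models was 302.1 and 327.9 CPM in normal Veh, 342.1 and 351.9 in normal CC, 705.0 and 696.7 in steatotic Veh, and 553.7 and 575.8 in steatotic CC, with no overlap between groups. Which model the shared reads came from cannot be told from the counts, and the sum was formed after these values were seen. In edgeR the summed locus was higher by 1.20 (SE 0.0471) in steatotic than in normal livers at Veh (adjusted p = 2.34e-06) and by 0.73 (SE 0.0467) with CC (adjusted p = 2.66e-05). With CC its log2 fold change was 0.18 (SE 0.0465) in normal livers (edgeR adjusted p = 0.0505) and -0.29 (SE 0.0464) in steatotic livers (edgeR adjusted p = 0.00308), and these responses differed by -0.47 (SE 0.0657; edgeR adjusted p = 0.0108). For *Itgam* alone, the CC responses of 0.06 and -0.45 did not pass (edgeR adjusted p = 0.942 and 0.392), nor did the value between livers with CC, 0.98 (SE 0.310; edgeR adjusted p = 0.0818, DESeq2 adjusted p = 0.0136). That value passed in edgeR without either normal Veh library (adjusted p = 0.0382 and 0.0389).

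**Figure D3:**
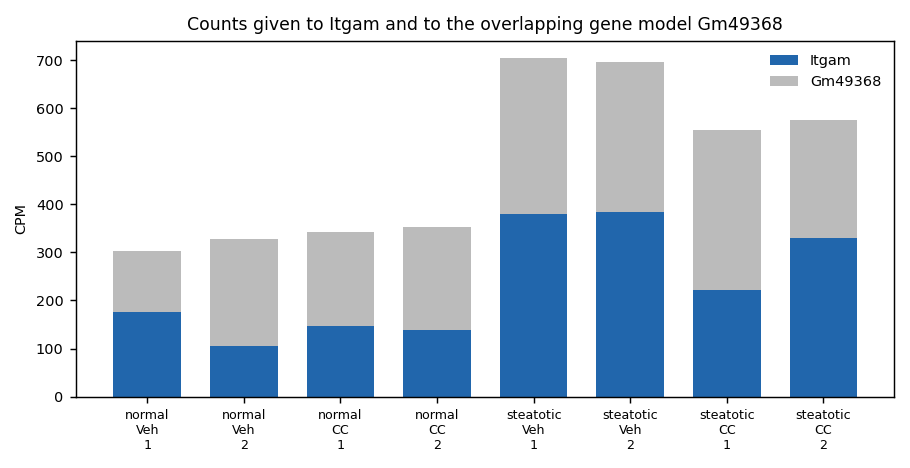
Counts given to *Itgam* and to the overlapping gene model *Gm49368*, stacked, in CPM for each of the 8 libraries on an axis that starts at 0. The 2 parts vary between replicates, while the total bar is 302.1 and 327.9 CPM in normal Veh and 705.0 and 696.7 in steatotic Veh.

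The bases upstream of *Itgax*, *Itgb7* and *Itga4* are shown because these 3 members changed in every comparison between livers and with CC, the first pair upward and *Itga4* downward with CC. They are the 250 bases before the RefSeq start (GRCm38.p6), 5′ to 3′ on the strand of the gene, with the AP-1 letters TGANTCA in capitals.
*Itgax*, chr7:128129300-128129549, plus strand: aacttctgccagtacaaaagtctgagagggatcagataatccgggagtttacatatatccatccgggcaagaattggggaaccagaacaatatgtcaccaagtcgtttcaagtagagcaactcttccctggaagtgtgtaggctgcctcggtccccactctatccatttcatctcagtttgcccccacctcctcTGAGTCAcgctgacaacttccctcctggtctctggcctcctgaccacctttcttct
*Itgb7*, chr15:102231936-102232185, minus strand: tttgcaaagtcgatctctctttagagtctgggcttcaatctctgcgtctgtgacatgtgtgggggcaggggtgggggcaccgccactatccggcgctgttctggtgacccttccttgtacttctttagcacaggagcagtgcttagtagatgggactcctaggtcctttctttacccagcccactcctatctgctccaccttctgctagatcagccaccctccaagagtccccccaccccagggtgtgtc
*Itga4*, chr2:79255176-79255425, plus strand: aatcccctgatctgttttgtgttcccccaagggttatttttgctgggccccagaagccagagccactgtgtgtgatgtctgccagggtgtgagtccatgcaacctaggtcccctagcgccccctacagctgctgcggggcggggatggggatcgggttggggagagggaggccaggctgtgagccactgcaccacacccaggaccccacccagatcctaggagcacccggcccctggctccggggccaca
RefSeq promoter windows were matched for 7 members (*Itgax*, *Itgam*, *Itga4*, *Itgb1*, *Itgb7*, *Itgav* and *Itgb8*). In windows of 250 bases before and 50 after the start, both strands were searched for the letters of PU.1 (GAGGAAGT), of the E-box of TFE3, TFEB and MITF (CACGTG), of EGR1 (GCGNGGGCG) and of AP-1 (TGANTCA). AP-1 letters were found at position -56 of *Itgax*, and PU.1 letters on the opposite strand from -9 of *Itgav* and from 1 of *Itgb7*, with no other match. Of all 32851 windows, 7.81% held the AP-1 letters, 3.20% those of PU.1, 7.15% the E-box and 5.55% those of EGR1, so these matches are a description only.

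*Itgax* (ENSMUSG00000030789.9; chr7:128129547-128150657, plus strand) encodes CD11c. It had 21.7 and 22.4 CPM in normal Veh, 29.0 and 30.2 in normal CC, 42.2 and 33.4 in steatotic Veh, and 165.2 and 145.3 in steatotic CC. The groups did not overlap, and the steatotic CC libraries stood far above the rest. Its log2 response to CC was 0.46 (SE 0.115; edgeR adjusted p = 0.0447) in normal and 2.06 (SE 0.117; edgeR adjusted p = 3.08e-05) in steatotic livers, and the responses differed by 1.59 (SE 0.161; edgeR adjusted p = 0.00497). The response in normal livers was no longer called without any 1 of the 4 libraries compared (edgeR adjusted p from 0.138 to 0.196). Between livers, *Itgax* was higher by 0.82 (SE 0.115) at Veh (edgeR adjusted p = 0.00167) and by 2.42 (SE 0.119) with CC (edgeR adjusted p = 1.24e-05). The 6 dendritic cell markers, another cell type known for CD11c, summed to 3.61 to 4.24 CPM in normal Veh, 4.85 to 5.54 in normal CC, 9.38 to 9.65 in steatotic Veh and 7.36 to 8.71 in steatotic CC, and their part in the *Itgax* values was not tested.

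*Itgb7* (ENSMUSG00000001281.10; chr15:102215995-102231944, minus strand) encodes the β7 chain, known from gut-homing lymphocytes. It had 36.1 and 37.2 CPM in normal Veh, 51.6 and 50.5 in normal CC, 279.6 and 286.1 in steatotic Veh, and 458.7 and 474.1 in steatotic CC. Its groups did not overlap, and the step between livers was larger than the step with CC. At Veh the log2 fold change between livers was 2.99 (SE 0.0418; edgeR adjusted p = 2.80e-08), the largest of the members, and with CC it was 3.22 (SE 0.0421; edgeR adjusted p = 2.64e-08). CC raised *Itgb7* by 0.51 (SE 0.0393) in normal livers (edgeR adjusted p = 0.000228) and by 0.74 (SE 0.0388) in steatotic livers (edgeR adjusted p = 1.36e-05). These responses differed by 0.22 (SE 0.0550; edgeR adjusted p = 0.0868). The summed 7 T or NK cell markers were also higher at Veh in the steatotic libraries, with 10.8 to 12.8 against 0.935 to 1.31 CPM, and *Itgae*, the αE partner of β7 on intraepithelial T cells, was at most 0.349 CPM. The part of these cells in the *Itgb7* values was not tested.

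*Itga4* (ENSMUSG00000027009.18; chr2:79255426-79333123, plus strand) encodes the α4 chain, which is abundant on monocytes and lymphocytes. It had 32.5 and 35.8 CPM in normal Veh, 18.7 and 16.5 in normal CC, 117.7 and 119.5 in steatotic Veh, and 68.9 and 74.3 in steatotic CC. The 4 groups did not overlap, and CC lay below Veh with either label. *Itga4* was higher by 1.84 (SE 0.0800) in steatotic livers at Veh (edgeR adjusted p = 3.78e-06) and by 2.05 (SE 0.0813) with CC (edgeR adjusted p = 2.55e-06). With CC its log2 fold change was -0.92 (SE 0.0795) in normal (edgeR adjusted p = 0.000396) and -0.71 (SE 0.0776) in steatotic livers (edgeR adjusted p = 0.000489), with a difference of 0.21 (SE 0.110; edgeR adjusted p = 0.463). Summed monocyte markers moved in the same order, with 6.34 to 6.95 CPM in normal CC and 78.9 to 90.4 in steatotic CC, although with CC only 1 of the 5 was called lower, in steatotic livers. *Cerkl* on the opposite strand shares 1124 exonic bases with *Itga4*, and whether counting used strand is not stated.

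*Itgb1* (ENSMUSG00000025809.15; chr8:128685654-128733200, plus strand) encodes the β1 chain, which pairs with the most alpha chains. It had 590.9 and 591.6 CPM in normal Veh, 587.8 and 584.9 in normal CC, 751.7 and 741.3 in steatotic Veh, and 672.0 and 694.9 in steatotic CC. Both steatotic groups lay above the normal ones. *Itgb1* was higher by 0.38 (SE 0.0316) at Veh (edgeR adjusted p = 8.68e-05) and by 0.25 (SE 0.0316) with CC (edgeR adjusted p = 0.000968). Its fall with CC in steatotic livers was small, -0.11 (SE 0.0316; edgeR adjusted p = 0.0417), and was lost with DESeq2 (adjusted p = 0.131), with only the 4 libraries compared (adjusted p = 0.104), with the replicate block (adjusted p = 0.0593) and without any 1 library other than steatotic CC replicate 2 (adjusted p from 0.0610 to 0.182).

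*Itgav* (ENSMUSG00000027087.11; chr2:83724397-83806916, plus strand) encodes the αV chain. It had 134.6 and 129.3 CPM in normal Veh, 106.4 and 105.7 in normal CC, 162.0 and 158.3 in steatotic Veh, and 98.0 and 103.7 in steatotic CC. The Veh libraries lay above all CC libraries. At Veh it was higher by 0.32 (SE 0.0452) in steatotic livers (edgeR adjusted p = 0.00128). CC lowered it with log2 fold changes of -0.28 (SE 0.0452) in normal (edgeR adjusted p = 0.00716) and -0.65 (SE 0.0454) in steatotic livers (edgeR adjusted p = 5.26e-05). The fall in normal livers missed the threshold without normal Veh replicate 1 (edgeR adjusted p = 0.0507). The responses differed by -0.37 (SE 0.0639; edgeR adjusted p = 0.0249), a call that was lost without any 1 library other than normal Veh replicate 1 and steatotic CC replicate 2 (edgeR adjusted p from 0.0614 to 0.0900). With CC the value between livers was -0.05 (edgeR adjusted p = 0.505). The transcript *Gm13684* on the opposite strand shares 634 exonic bases.

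*Itgb3* (ENSMUSG00000020689.4; chr11:104608000-104670476, plus strand) encodes the β3 chain of the αV vitronectin receptor and of the platelet fibrinogen receptor. Its level was 2.27 and 3.08 CPM in normal Veh, 2.63 and 3.0 in normal CC, 6.40 and 6.08 in steatotic Veh, and 7.55 and 6.39 in steatotic CC. The steatotic groups lay above the normal ones, and within each label the Veh and CC libraries overlapped. *Itgb3* was higher by 1.27 (SE 0.191) at Veh (edgeR adjusted p = 0.00190) and by 1.33 (SE 0.191) with CC (edgeR adjusted p = 0.00171), and neither CC response passed (edgeR adjusted p = 0.787 and 0.572). Beside it, the 5 platelet markers summed to 12.7 to 14.8 CPM in normal Veh and 78.9 to 81.3 in steatotic Veh, of which 1 passed the filter and was called higher, with *Gp9* at 0 in steatotic Veh, and *Itga2b*, the platelet partner of β3, was at 0 to 0.290 CPM over all libraries. Their part in the *Itgb3* values was not tested.

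*Itgb8* (ENSMUSG00000025321.14; chr12:119158022-119238802, minus strand) encodes the β8 chain, which with αV activates latent TGF-β. It had 8 and 16 counts in normal Veh, 4 and 30 in normal CC, 26 and 10 in steatotic Veh, and 191 and 181 in steatotic CC. These correspond to 0.113 and 0.242, 0.0641 and 0.511, 0.381 and 0.136, and 2.91 and 2.43 CPM, where 3 fragments of about 4 counts each give 0.161 to 0.205 CPM. Only the steatotic CC libraries stood clear of this floor in both replicates, and *Itgb8* passed the filter through them and 1 normal CC library. CC raised it by 3.39 (SE 0.866) on the log2 scale in steatotic livers (edgeR adjusted p = 0.0320), and with CC it was higher by 3.24 (SE 0.866) in steatotic than in normal livers (edgeR adjusted p = 0.0313). The first call was lost with all genes of any count (adjusted p = 0.0596), with the replicate block (adjusted p = 0.0589) and without any 1 library other than the normal CC ones (adjusted p from 0.0526 to 0.157), with values from 2.82 to 4.30. The second was lost with all genes of any count (adjusted p = 0.0580), with the 4 libraries alone (adjusted p = 0.0765), with the replicate block (adjusted p = 0.0530), and without either normal Veh, either steatotic CC library or normal CC replicate 1 (adjusted p from 0.0506 to 0.0948), and the value ran from 2.40 without normal CC replicate 1 to 5.37 without normal CC replicate 2. The difference between the CC responses was 2.66 (SE 1.26; edgeR adjusted p = 0.414) and ran from 1.82 to 4.79 without those same libraries. At Veh the value between livers was 0.58 (edgeR adjusted p = 0.689), and with CC in normal livers it was 0.72 (edgeR adjusted p = 0.706). Beside it, the 6 stellate cell or fibroblast markers summed to 2.58 to 2.69 CPM in normal Veh, 5.91 to 7.35 in normal CC, 17.9 to 21.1 in steatotic Veh and 108 to 135 in steatotic CC. Of these, 1 passed the filter and rose with CC in both livers, while *Lrat* and *Des* were at 0 in both steatotic groups, and their part in the *Itgb8* values was not tested.

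Alpha and beta chains were then paired within each library, as the log2 ratio of their CPM, and 8 pairs were compared between the 4 libraries of each label by an exact two-sided permutation test, whose smallest p is 0.0286, with adjustment over the 8. None passed an adjusted p of 0.05, which would have needed 5 of the 8 at that smallest p. The test pooled the Veh and CC libraries of each label, so a shift with CC adds to its spread. The pooled libraries of the 2 labels did not overlap for 3 pairs. *Itgax* over *Itgb2* was higher in the steatotic libraries by 1.48 and *Itga4* over *Itgb1* by 1.63, whereas *Itgav* over *Itgb3* differed by -1.17 (exact permutation p = 0.0286, adjusted 0.0762 for each of the 3). For *Itgax* over *Itgb2* the difference was 0.54 in the Veh and 2.42 in the CC libraries. LFA-1 (*Itgal* over *Itgb2*) differed by 0.04 (exact permutation p = 0.886), α4β7 (*Itga4* over *Itgb7*) by -1.16 (exact permutation p = 0.171), αVβ1 by -0.18 (exact permutation p = 0.286) and αVβ8 by -2.06 (exact permutation p = 0.200), adjusted 0.886, 0.267, 0.327 and 0.267. For αVβ8 the difference was -0.18 in the Veh and -3.95 in the CC libraries. In normal CC *Itgb8* had 0.0641 and 0.511 CPM, near the floor of 3 fragments, so the value with CC rests on few counts. *Itgam* over *Itgb2* differed by 1.11 (exact permutation p = 0.0571, adjusted 0.114). With the counts of *Gm49368* added, it differed by 0.83, with no overlap (exact permutation p = 0.0286, not adjusted). The pairs α4β7, αVβ1 and *Itgam* over *Itgb2* overlapped between labels when pooled, but not within Veh or within CC.

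The 2 pairs with α4 differed in direction between livers. Per kilobase, *Itga4* was at 0.0169 ± 0.00115 (SD, n = 2) of *Itgb1* in normal Veh, 0.00875 ± 0.000745 in normal CC, 0.0464 ± 0.000954 in steatotic Veh and 0.0306 ± 0.000899 in steatotic CC. Against *Itgb7* it was at 0.185 ± 0.00873, 0.0681 ± 0.00503, 0.0831 ± 0.000472 and 0.0304 ± 0.000903 in the same order. The ratio to *Itgb1* was higher and that to *Itgb7* lower in steatotic Veh than in normal Veh, with no overlap of libraries, and in all 4 groups both beta chains were above *Itga4*. *Itgav* RNA, by contrast, exceeded *Itgb3* RNA per kilobase by 27.8 ± 6.77 times in normal Veh, 20.8 ± 2.03 in normal CC, 14.1 ± 0.280 in steatotic Veh and 8.02 ± 1.26 in steatotic CC. These are RNA ratios, and no protein or heterodimer was measured.

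**Figure D4:**
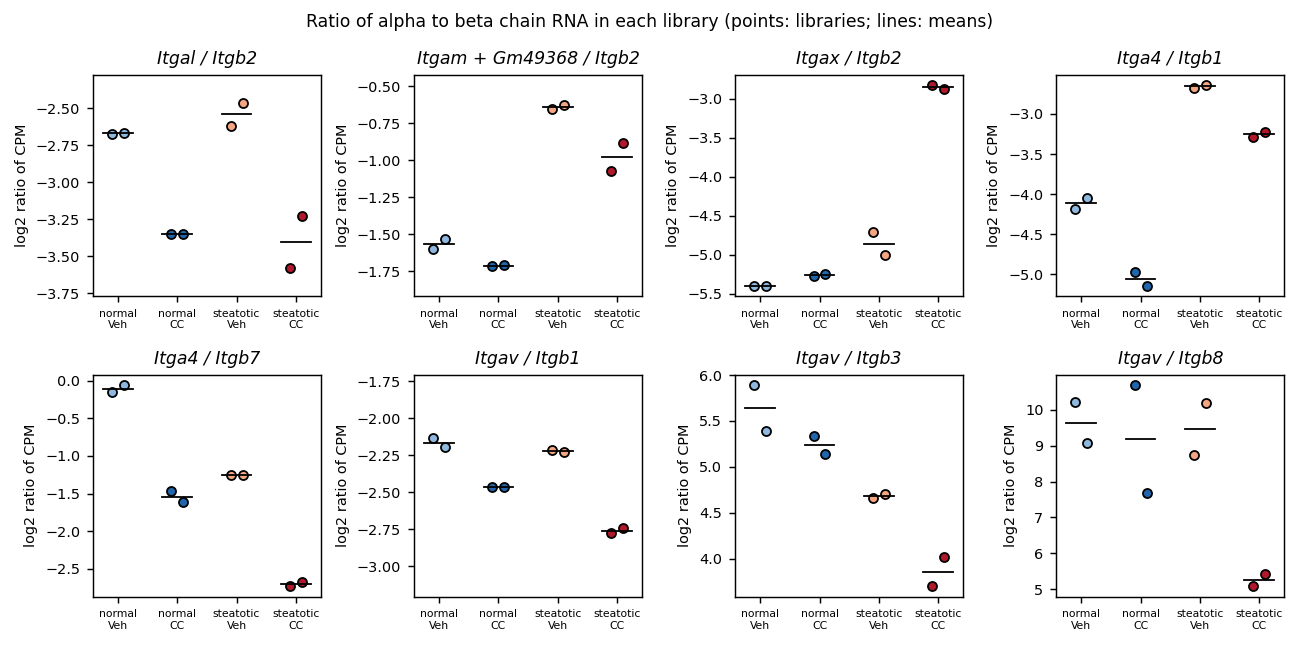
Log2 ratio of alpha chain to beta chain CPM in each library for 8 pairs, with points for libraries, lines for group means and axes that do not start at 0. The *Itgax* to *Itgb2* ratio stands apart in steatotic CC, *Itga4* to *Itgb1* is higher in both steatotic groups, and *Itgav* to *Itgb3* is lower in both.

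The make-up of the chains was described as shares of CPM per kb. Of *Itgal*, *Itgam* and *Itgax* together, *Itgax* made up 8.50% ± 1.63 (SD, n = 2) in normal Veh, 11.96% ± 0.522 in normal CC, 7.01% ± 1.20 in steatotic Veh and 31.8% ± 7.17 in steatotic CC. With the counts of *Gm49368* given to *Itgam*, these shares were 5.13%, 6.68%, 4.47% and 20.1%, so that steatotic CC stood apart either way. *Itgal* fell behind in the same sum, from 24.9% ± 0.561 in normal Veh to 9.98% ± 0.963 in steatotic CC. Of *Itgb1*, *Itgb3*, *Itgb7* and *Itgb8* together, *Itgb7* made up 8.35% ± 0.155 in normal Veh, 11.3% ± 0.120 in normal CC, 35.7% ± 0.608 in steatotic Veh and 49.9% ± 0.0223 in steatotic CC. *Itgb1* held most of the remainder, from 91.4% ± 0.221 in normal Veh to 49.7% ± 0.0378 in steatotic CC, and *Itgb3* and *Itgb8* held under 1% each in every library.

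**Figure D5:**
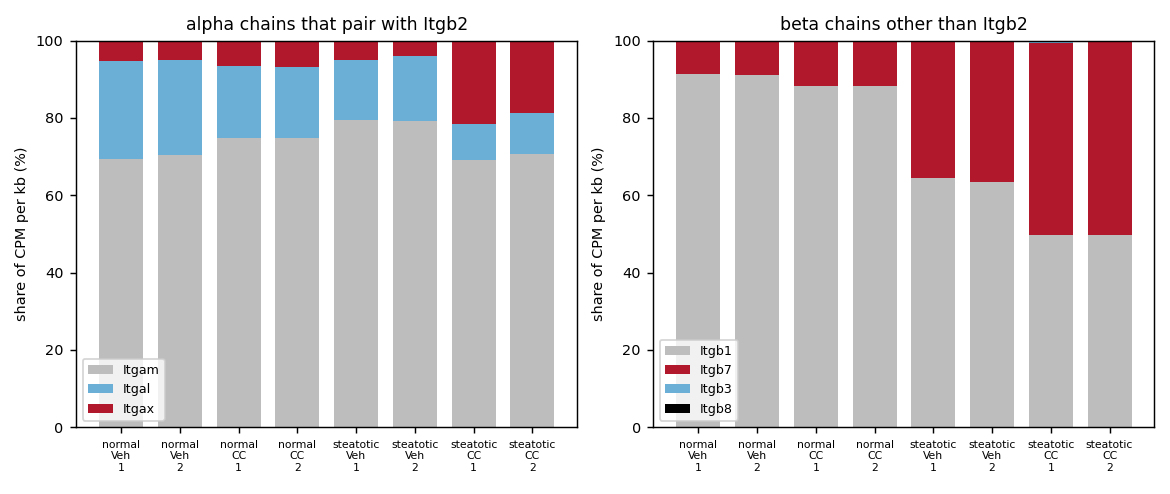
Shares of CPM per kb in each library, stacked to 100%, for the alpha chains that pair with *Itgb2* (left, with *Gm49368* counts given to *Itgam*) and for 4 beta chains (right). The *Itgax* share is 20.1% on average in steatotic CC, and the *Itgb7* share grows from 8.35% in normal Veh to 49.9% in steatotic CC.

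For each member whose group means spanned more than 4-fold, the 3 genes were sought whose centred log2 CPM lay closest over the 8 libraries. Only tested genes with a mean log2 CPM over 3 were searched. The root mean square difference from *Itgax* was 0.109 for *F10*, coagulation factor X, 0.193 for *Ndrg1* and 0.198 for *Malt1*, where *Itgax* itself spanned 7.04-fold. From *Itga4* it was 0.121 for *Gm1966*, 0.168 for *Gm5150* and 0.175 for *I830077J02Rik*. The nearest to *Itgb7*, which spanned 12.7-fold, were *Tmem171* (0.135), *Xylt1* (0.246) and *Ms4a8a* (0.293). *Itgb8* itself lay below the level searched. Of the genes searched, those nearest to it lay farther off, and were *Itgax* (0.752), *F10* (0.796) and *Malt1* (0.801). Genes at its own level were not compared.

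Of 17 further integrin subunits, 11 passed the filter. At Veh, 7 of these were higher in the steatotic libraries, and with CC 6, where 16.4% and 15.9% of all genes were called higher. Without *Itgad*, which reached the filter only in steatotic libraries so that its direction was fixed by it, these counts were 6 and 5 of 10. *Itgad*, the αD chain that also pairs with β2, was at 0 in the 4 normal libraries, at 1.52 and 1.48 CPM in steatotic Veh, and at 7.30 and 5.97 CPM in steatotic CC. This was at least 8.55-fold higher by liver label at Veh and at least 33.5-fold higher with CC, against a floor of 3 fragments (12 counts) per library. CC raised *Itgad* by 2.16 (SE 0.233) in steatotic livers (edgeR adjusted p = 0.00184). *Itgb5*, another beta chain of αV, had 129.8 and 125.6 CPM in normal Veh, 71.2 and 77.6 in normal CC, 237.3 and 246.0 in steatotic Veh, and 96.8 and 100.7 in steatotic CC. Like its partner *Itgav*, it was lowered by CC in both livers, with log2 fold changes of -0.74 in normal (edgeR adjusted p = 0.000165) and -1.27 (SE 0.0539) in steatotic livers (edgeR adjusted p = 5.04e-06), and the CC responses differed by -0.53 (edgeR adjusted p = 0.0113). *Itga5*, the α5 chain of the fibronectin receptor, had 386.4 and 401.4 CPM in normal Veh and 376.5 and 368.7 in steatotic Veh (-0.03, edgeR adjusted p = 0.563), and CC raised it by 0.38 in normal and 0.53 in steatotic livers (edgeR adjusted p = 0.000934 and 7.58e-05). Among further partners of β1, at 0.567 to 11.5 CPM over all libraries, *Itga1* (2.63), *Itga2* (1.08), *Itga3* (1.60) and *Itga6* (1.88) were higher at Veh on the log2 scale (edgeR adjusted p = 0.000542, 0.0355, 0.00113 and 0.000285), and CC lowered *Itga6* in steatotic livers (-1.31, edgeR adjusted p = 0.00207).

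Of 35 genes for integrin activators and adaptors, 34 were tested. At Veh 19 were higher and 5 lower in the steatotic libraries (16.4% and 14.3% of all genes tested). CC raised 7 and lowered 9 in steatotic livers (12.0% and 10.9% of all genes) and raised 8 and lowered 5 in normal livers (6.27% and 5.54% of all genes). The median log2 fold change of the list was 0.23 at Veh, beside -0.01 over all genes. *Vcl*, which encodes vinculin, went from 16.2 and 13.8 CPM in normal Veh to 9.02 and 8.75 in steatotic Veh (log2 fold change -0.71, edgeR adjusted p = 0.00256) and rose with CC to 24.8 and 21.1 (1.39, edgeR adjusted p = 0.000113). The tyrosine kinase gene *Src* did the same, with -0.70 at Veh and 0.88 with CC in steatotic livers (edgeR adjusted p = 0.000131 and 5.97e-05). *Rassf5*, whose product RAPL links Rap1 to LFA-1, fell with CC in steatotic livers from 50.5 and 50.7 to 20.1 and 20.2 CPM (-1.31, edgeR adjusted p = 9.90e-06). *Apbb1ip*, the Rap1 effector RIAM that recruits talin, fell by 0.68 on the log2 scale (edgeR adjusted p = 1.99e-05), as did *Pxn* for paxillin with -0.67 (edgeR adjusted p = 0.000652), while *Zyx* for zyxin rose by 0.52 (edgeR adjusted p = 0.00572). In normal livers, CC libraries also lay above Veh libraries for *Vcl* (28.6 and 27.1 CPM with CC), *Src* (140.2 and 140.8) and *Zyx*. They lay below Veh libraries for *Rassf5* (14.1 and 14.8 CPM with CC), *Apbb1ip* and *Pxn*. At Veh the parvin gene *Parvg* (1.29) and the tensin gene *Tns1* (1.27) were higher in the steatotic libraries, and *Parvb* (-0.48) was lower (edgeR adjusted p = 1.08e-05, 8.92e-05 and 0.000275). *Skap1*, a T cell adaptor, is also among the 19 higher at Veh and the 5 lowered in normal livers. It had 0.156 and 0.332 CPM in normal Veh, 0 in normal CC, and 0.849 and 1.26 in steatotic Veh. It passed the filter only through steatotic libraries, so its direction at Veh was fixed by the filter. In normal livers it lay near or below the floor, so its call with CC rests on few counts and no fold is given. The T or NK cell markers rose beside it at Veh from sums of 0.935 to 1.31 to sums of 10.8 to 12.8 CPM, whose part was not tested.

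Of the ligands and counter-receptors, 22 of 23 in the table were tested, with 12 higher and 2 lower at Veh, beside 16.4% and 14.3% of all genes, and a median of 0.54. CC raised 4 in normal livers, beside 6.27% of all genes, and raised 5 and lowered 3 in steatotic livers, beside 12.0% and 10.9%. *Spp1*, which encodes the αV ligand osteopontin, went from 57.7 and 50.9 CPM in steatotic Veh to 339.7 and 316.2 in steatotic CC (log2 fold change 2.61, SE 0.128, edgeR adjusted p = 3.22e-05). *Thbs1* for thrombospondin 1 went from 22.7 and 26.0 CPM in normal Veh to 214.8 and 202.3 in steatotic Veh (3.14, edgeR adjusted p = 3.96e-07) and to 498.1 and 470.1 in steatotic CC (1.23 with CC, edgeR adjusted p = 1.99e-05). *C3*, the source of the Mac-1 ligand iC3b, rose with CC in steatotic livers from 327.8 and 328.1 to 617.7 and 660.5 CPM (0.98, edgeR adjusted p = 1.25e-05). *Tgfb3*, *Icam2* and *F11r* fell with CC in steatotic livers, by 1.22, 0.72 and 0.31 on the log2 scale (edgeR adjusted p = 0.0161, 0.0149 and 0.00327). In normal livers *Spp1* went with CC from 9.94 and 12.9 to 19.8 and 19.9 CPM, and *C3* from 221.5 and 240.6 to 282.4 and 285.4. *Thbs1* was at 30.8 and 29.5 CPM in normal CC. There *Tgfb3*, *Icam2* and *F11r* also lay lower with CC than with Veh, but were not called. At Veh *Spp1* (2.30) and *Thy1* (3.05) were higher in the steatotic libraries (edgeR adjusted p = 4.13e-05 and 0.000381). *Thy1*, which T cells and fibroblasts express, went from 0.921 and 0.513 to 6.56 and 4.97 CPM. The T or NK cell markers rose beside it, as did the summed stellate cell or fibroblast markers. Of the 6 stellate cell or fibroblast markers only 1 passed the filter, and *Lrat* and *Des* were at 0 in steatotic Veh. The part of these cells in the *Thy1* values was not tested. The 2 lower ones were the fibrinogen genes *Fgg* and *Fgb*, which reached the filter only in normal libraries, so that their direction was fixed by it. They were under 1 CPM in normal Veh and at 0 in both and in 1 of the steatotic Veh libraries, beside hepatocyte markers of which 4 of 6 were called lower at Veh, with a median log2 fold change of -3.93 and sums of 152 to 159 CPM in normal Veh and 105 to 119 CPM in steatotic Veh. Their part in the fibrinogen values was not tested.

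Of the 9 membrane proteins that associate with integrins, 1 was higher and 3 were lower in the steatotic libraries at Veh, beside 16.4% and 14.3% of all genes, with a median of -0.13. *Cd47*, the don't-eat-me signal that associates with αVβ3, was higher in steatotic Veh, with 366.5 and 399.6 against 733.6 and 738.8 CPM (log2 fold change 0.99, edgeR adjusted p = 7.10e-06), and fell with CC in steatotic livers by 0.27 (edgeR adjusted p = 0.00570). The tetraspanin genes *Cd82* and *Cd81* and the urokinase receptor gene *Plaur* were lower in steatotic Veh (-1.13, -0.92 and -1.0, edgeR adjusted p = 4.27e-06, 1.82e-05 and 3.20e-05). With CC in steatotic livers *Plaur* rose from 61.6 and 57.5 to 191.9 and 175.1 CPM (1.64, edgeR adjusted p = 4.87e-06), the tetraspanin gene *Cd9* from 49.6 and 49.9 to 192.3 and 169.2 CPM (1.88, edgeR adjusted p = 3.16e-06), and *Cav1* for caveolin 1 from 3.35 and 4.54 to 13.2 and 12.6 CPM (1.72, edgeR adjusted p = 0.0422). *Cd81* fell further with CC (-0.58, edgeR adjusted p = 0.000259). In normal livers CC also raised *Plaur*, from 128.5 and 117.2 to 236.1 and 228.8 CPM (0.96, edgeR adjusted p = 0.000154). It raised *Cd9* there too, from 59.7 and 57.3 to 124.1 and 116.3 CPM (1.08, edgeR adjusted p = 0.000109). In total CC raised 5 and lowered 2 of the 9 in steatotic livers, beside 12.0% and 10.9% of all genes, and raised 4 and lowered 1 in normal livers, beside 6.27% and 5.54%.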

How the data were processed

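RNA of F4/80-selected hepatic macrophages was measured in 8 libraries of 4 groups. Per the labels and the study's methods, 150 bp paired-end reads of a stranded poly(A) library were trimmed with fastp, aligned to mm10 with HISAT2 and quantified with StringTie, in versions not given in the sources used here. The authors deposited estimated counts (expected counts) of 55401 genes, not normalized, as whole numbers, so no rounding was needed. How coverage was turned into counts and whether strand was used are not stated. Small counts were multiples of 4 more often than larger ones (35.0% to 36.5% of counts from 1 to 20 against 23.9% to 27.0% from 100 to 1000), so 1 fragment was taken to stand for about 4 counts, and 3 fragments (12 counts) gave the floor of 0.161 to 0.205 CPM, which covers counting error only.

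Groups came from the labels. The 15202 genes that reached 0.5 CPM in 1 or more libraries were tested with edgeR 4.0.16 in R 4.3.3 (robust glmQLFit and glmQLFTest, TMM factors 0.981 to 1.03, 1 model of 4 group means), with Benjamini-Hochberg adjustment over all tested genes per contrast and a threshold of 0.05. Pair ratios were tested by exact permutation in Python (scipy 1.17.1). Shares and levels per kb used the union of exons in GENCODE M21 (GRCm38). Alternatives were DESeq2 1.42.0, its size factors, other filters on low counts, library size only, counts divided by 4, a prior count of 4, the 4 libraries of a comparison alone, a replicate block, each library left out, and the counts of *Gm49368* added to *Itgam*, the last chosen after seeing the data. On simulated counts for CC against Veh in steatotic livers (13722 genes), edgeR recovered 71 of 100 genes changed by 1 and 97 of 100 changed by 2 on the log2 scale, with 8 false calls. The simulation drew negative binomial counts whose spread followed a trend over levels, with 200 genes changed. It held no gene-specific spread and no steps of about 4 counts, so these rates may not carry over to the data.

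The members, the pairs and the gene lists were chosen with earlier results of these data known. Named beside the members are *Mc4r*, other integrin subunits called with a log2 fold change over 1 in size at Veh or with CC in steatotic livers, and per list and contrast up to 3 genes with the largest rise and 3 with the largest fall among those called. Further subunits and *Gm49368* were named after their values were seen. Figures were drawn with matplotlib 3.10.9.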

Additional observations from a re-analysis of the deposited data

Results flagged for a closer look

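Among the 10 members and 11 further subunits tested, the test of the difference between the CC responses of the 2 liver labels called 3 integrin genes. Of all genes, 1.95% were called higher and 1.27% lower. The summed locus of *Itgam* and *Gm49368*, formed after its values were seen, also passed (-0.47, edgeR adjusted p = 0.0108). The log2 response of *Itgax* was larger in the steatotic libraries by 1.59 (edgeR adjusted p = 0.00497), with 165.2 and 145.3 CPM in steatotic CC against 42.2 and 33.4 in steatotic Veh. The responses of *Itgb5* and *Itgav* were more negative in the steatotic libraries, by -0.53 and -0.37 (edgeR adjusted p = 0.0113 and 0.0249), and both chains lay lower with CC than with Veh in each library of either label. The call of *Itgav* was lost without any 1 library other than normal Veh replicate 1 and steatotic CC replicate 2 (edgeR adjusted p from 0.0614 to 0.0900). The groups held 2 libraries each, so no search for a library standing apart within a group was made.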

How the results depend on the processing

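The counts of members called higher stayed within 1.5 times their value under each alternative run. Of the members called lower for the difference between CC responses, 1 became 2 with DESeq2, 3 with all genes of any count, 2 with the replicate block and 2 with *Gm49368* added to *Itgam*, and ran from 0 to 2 with each library left out. Those called lower with CC in normal livers fell from 3 to 1 without normal Veh replicate 1, the lower end of that range. Over all genes, DESeq2 called 430 higher and 307 lower for the difference between responses, against 297 and 193 with edgeR. Replicate numbers did not pair the libraries (correlations of deviations from -0.00485 to 0.0629), and the replicate block lowered the calls at Veh from 2489 to 2341 higher.

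Directions turned only for values that had not passed the test. With libraries scaled by size only, *Itgb1* with CC in normal livers went from 0.02 to -0.012, and with all genes of any count, *Itgb2* between livers with CC went from -0.00 to 0.0039. With each library left out, the log2 fold change of *Itgb8* at Veh ranged from -0.33 (without steatotic Veh replicate 1) to 1.21. With CC in normal livers, *Itgam* ranged from -0.26 (without normal Veh replicate 2) to 0.49, *Itgb3* from -0.088 (without normal Veh replicate 1) to 0.35 and *Itgb8* from -1.40 (without normal CC replicate 2) to 1.56. With CC in steatotic livers, *Itgb2* ranged from -0.019 (without steatotic CC replicate 1) to 0.11. For the difference between responses, *Itgb3* ranged from -0.18 to 0.26 and was below 0 without normal Veh replicate 2, normal CC replicate 1 or steatotic CC replicate 1. Between livers with CC, *Itgal* ranged from -0.17 to 0.049 (without steatotic CC replicate 1) and *Itgb2* from -0.072 to 0.061, above 0 without normal CC replicate 2 or steatotic CC replicate 2. The cause was not tested.

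Among pair ratios, the difference between livers in Veh libraries alone and in CC libraries alone was 0.54 and 2.42 for CD11c/CD18, 1.46 and 1.81 for α4β1, -0.057 and -0.29 for αVβ1 and -0.18 and -3.95 for αVβ8. With each library left out it ranged from -0.13 to 0.24 for LFA-1, 1.14 to 1.86 for CD11c/CD18, 1.45 to 1.82 for α4β1, -1.42 to -0.90 for α4β7 -0.27 to -0.080 for αVβ1 and -3.01 to -1.30 for αVβ8. The *Itgax* share became 5.13%, 6.68%, 4.47% and 20.1% with *Gm49368* in the sum, and 10.4% in normal CC with no length. The *Itgb7* share in normal Veh, normal CC, steatotic Veh and steatotic CC became 8.08%, 10.98%, 34.9% and 49.0% with the longest transcript, 6.80%, 10.0%, 28.8% and 46.1% with *Itgb5* and *Itgb6* in the sum, and 5.81%, 7.97%, 27.3% and 40.2% with no length. Groups of 2 libraries, counts near the floor for *Itgb8* and reads shared with *Gm49368* limit these results. With a library left out, the lone library of its group is assumed to vary like the other groups.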
